A study of Homo sapiens with 4 samples.

Results

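DUSP1, DUSP4, DUSP5, DUSP6, SPRY1, SPRY2, SPRY4, SPRED1, PHLDA1 and IL17RD are transcriptional targets and feedback inhibitors of ERK signalling. They were followed here in PC3 cells, a human prostate cancer cell line, after knockdown of the oxidative demethylase ALKBH3. These are 10 of the 14556 genes tested, and 11 of the 34127 probes that were not controls measured them, SPRY4 with 2 probes and each other gene with 1. The genes were chosen by name as a functional group, and IL17RD was included because its signal was already known to be lower after the knockdown on these same arrays. Its values in that comparison are therefore given as a description without a test, and the question was whether the other 9 genes followed it.

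Infection with lentivirus lasted 48 h, the virus carried an shRNA to ALKBH3 (knockdown cells) or to GFP (control cells), and puromycin selection followed for either 48 h or 96 h. All 4 groups thus carried a lentivirus and were under selection, and which shRNA to ALKBH3 the knockdown cells received is not given. Total RNA of each combination of shRNA and time point was hybridised to 1 single-colour Agilent array. Each shRNA is thus repeated only across the time points, and nothing states that these were separate infections. The p-values therefore reflect only spread between these 4 arrays, whose small number limits the precision. For each gene limma combines its own spread with a spread estimated over all genes tested. The slide was shared by control and knockdown cells of a time point and differed between time points, so time point and slide cannot be told apart. The main fit of the shRNAs has no term for time point. Differences between the time points therefore count as error in its standard errors, p-values and intervals. Only the fit with the time point as a replicate block compares control and knockdown cells within a slide. That fit leaves few residual degrees of freedom, so its standard errors and p-values lean on the spread shared over genes. Every signal below is a log2 intensity relative to the 75th percentile of its own array, and a probe counted as measured where the image software called it well above background. All 11 probes were measured on all 4 arrays, and no spot was saturated. ALKBH3 itself had a signal of -0.74 in control and -2.48 in knockdown cells at 48 h, against -0.89 and -2.41 at 96 h. All 5 epithelial markers examined (EPCAM, KRT8, KRT18, KRT19 and CDH1) were measured on every array.

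Growth factor receptors activate RAS, which passes the signal through the kinases RAF, MEK and ERK to transcription factors. ERK activity then switches on genes whose products turn the pathway down again. The dual-specificity phosphatases remove phosphate from MAP kinases: DUSP1 and DUSP4 act in the nucleus on several of them, DUSP5 acts in the nucleus on ERK, and DUSP6 acts in the cytoplasm on ERK. Sprouty (SPRY) and SPRED proteins block the route from receptors through RAS to RAF. IL17RD, also called SEF, is a transmembrane protein that dampens FGF receptor and ERK signalling. PHLDA1 encodes a protein with a pleckstrin homology-like domain that is induced by ERK signalling. The levels of DUSP4, DUSP6, SPRY2, SPRY4 and PHLDA1 are widely used as a readout of ERK activity.

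The promoters of these genes were searched near the start of transcription for sites of ERK-responsive transcription factors and for a TATA box. RefSeq promoter windows (GRCh38.p14, from 250 bases before to 50 bases after each start) matched 8 of the 10 genes by symbol, all except DUSP4 and DUSP5. The following 30-base stretches lie before the start, read 5′ to 3′ on the strand of the gene, and capitals mark the matched letters.
DUSP1, cAMP response element, chr5:172771302-172771331, minus strand: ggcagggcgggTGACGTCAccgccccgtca
DUSP6, ETS core on the opposite strand, chr12:89352546-89352575, minus strand: cggcaacagcccCTTCCGcagcacgctcat
SPRY1, ETS core, chr4:123398308-123398337, plus strand: gccctccgcagcCGGAAGggggccgcgggg
PHLDA1, ETS core, chr12:76031806-76031835, minus strand: ggggaacgagcgCGGAAGcaagtgggcggc
SPRY2, EGR site on the opposite strand, chr13:80341149-80341178, minus strand: tccgcacccacCGCCCCCGCctcggcctcg
The cAMP response element (TGACGTCA, which reads the same on both strands) was found in 1 of the 8 genes, DUSP1, and in 1.85% of all 35116 promoter windows. The ETS core (CGGAAG) was found in DUSP6, SPRY1 and PHLDA1 and in 19.5% of all windows, and the EGR site (GCGGGGGCG) in SPRY1 and SPRY2 and in 5.07%. The TATA box (TATAAA) was found in DUSP1 and in 11.5% of windows. The AP-1 site (TGACTCA) and the CArG box, to which SRF binds, had a match in none of the 8 genes and in 4.95% and 1.29% of windows. IL17RD, SPRY4 and SPRED1 had no match to any of the sites searched. Both strands were searched, and a gene with several starts counted once. The shares are over single windows, so SPRY1 with 2 windows and SPRY2 with 3 had more chances of a match. The windows of DUSP1, PHLDA1, SPRED1 and SPRY4 held more G and C (65% to 76.3%) than the median window (58.7%). DUSP6 held 58.3%, and IL17RD, SPRY1 and SPRY2 had windows on both sides of that median. A match describes letters and not binding. The genes with an ETS core included DUSP6 and SPRY1, lower in knockdown cells at each time point, as well as PHLDA1, whose difference changed sign between the time points. No ETS core was found in IL17RD and SPRY4, also lower at each time point, in DUSP1, higher at each, or in SPRY2 and SPRED1, which changed sign. A relation between the sites and the signals was not tested.

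In knockdown cells IL17RD was lower by nearly the same amount at each time point, and SPRY4, SPRY1 and DUSP4 were lower by smaller amounts. In the other 6 genes the arrays of control and knockdown cells overlapped. None of the 9 genes other than IL17RD passed a 2-fold change with an unadjusted limma p below 0.05, a call that 0.234% of all genes tested passed as lower and 1.04% as higher. IL17RD itself was at 0.684-fold and did not reach a 2-fold change, so this call cannot show whether a gene followed it. None of the 9 passed a limma p of 0.05 after Benjamini-Hochberg adjustment either, and 0% of all genes did. At an unadjusted p below 0.05 there was 1 of the 9, SPRY4, which was lower, where 3.63% of all genes were lower and 4.7% higher at this level. In a fit that treated the time point as a replicate block, 0 of 9 passed the adjusted p, where 1.5% of all genes were lower and 2.96% higher. That fit placed 3 of 9, SPRY4, SPRY1 and DUSP4, below an unadjusted p of 0.05, all lower, against 11.7% of all genes that were lower. The median log2 fold change of the 9 genes was -0.02, and that of all genes tested was -0.0030.

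**Figure D1:**
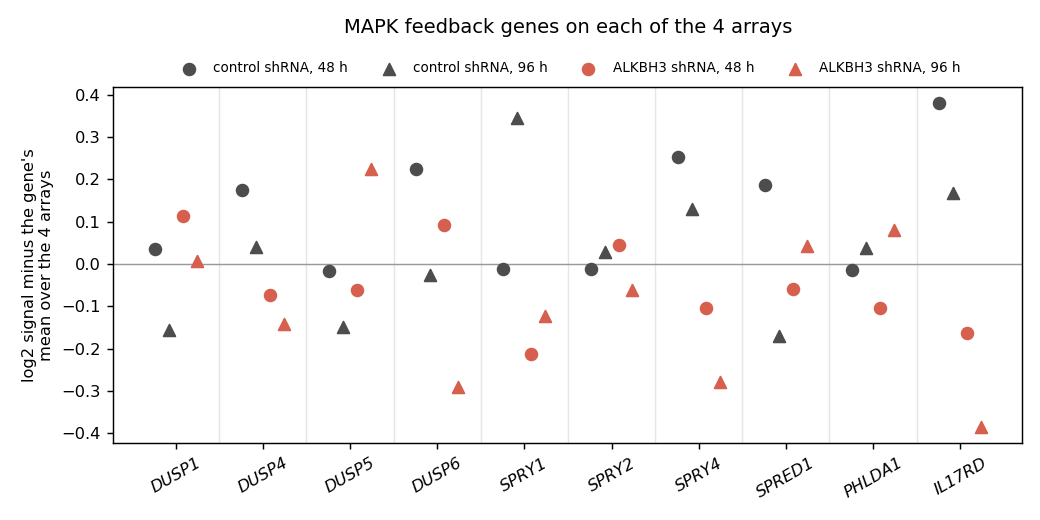
Log2 signal of each of the 10 genes on each of the 4 arrays, drawn as the difference from the mean of that gene over the arrays (vertical axis). Grey marks are control shRNA, red marks ALKBH3 shRNA, circles 48 h and triangles 96 h; both red marks lie below both grey marks for IL17RD, SPRY4, SPRY1 and DUSP4.

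IL17RD had a signal of -0.81 in control and -1.35 in knockdown cells at 48 h, against -1.02 and -1.57 at 96 h. Both control arrays lay above both arrays of knockdown cells. The difference was -0.54 (log2) at the earlier and -0.55 at the later time point, and the level was 0.684-fold that of control cells over both. Of all genes tested, 1.92% had a log2 fold change as low or lower, a description only, as IL17RD was chosen for this fall. IL17RD was measured with 1 probe.

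Among the Sprouty genes, SPRY4 was closest to IL17RD. Its signal was 1.94 in control and 1.58 in knockdown cells at 48 h, against 1.81 and 1.41 at 96 h. The control arrays were again both above the arrays of knockdown cells, and SPRY4 had a level 0.767-fold that of control cells (95% interval of the limma fit 0.603 to 0.976). The difference was -0.36 (log2) at the earlier and -0.41 at the later time point, with a fitted log2 fold change of -0.38 (SE 0.13, limma adjusted p = 0.567). The replicate block gave an adjusted p of 0.0759 in limma. A second and far dimmer probe of SPRY4 differed by -0.34 (log2) at 48 h and by -0.04 at 96 h, so the probes were alike at the earlier time point and not at the later.

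SPRY1, whose product inhibits receptor tyrosine kinase signalling, had a signal of 0.93 in control and 0.73 in knockdown cells at 48 h. At 96 h the values were 1.29 and 0.82. Control and knockdown arrays did not overlap, but the 96 h control array stood above the other three, and the 48 h control array was little above the 96 h array of knockdown cells. The difference was -0.20 (log2) at the earlier and -0.47 at the later time point, with a fitted log2 fold change of -0.33 (SE 0.16, limma adjusted p = 0.708). Its fold against control cells was 0.793 with a 95% interval of 0.586 to 1.07.

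SPRY2 and SPRED1 had a fold near 1. SPRY2 had a signal of 1.18 in control and 1.24 in knockdown cells at 48 h, against 1.22 and 1.13 at 96 h, so that all 4 arrays lay close together. Its fold against control cells was 0.989 (95% interval of the limma fit 0.799 to 1.22). SPRED1, which recruits the RAS inhibitor neurofibromin to the membrane, had a signal of 0.29 in control and 0.04 in knockdown cells at 48 h, against -0.07 and 0.15 at 96 h. It was lower in knockdown cells at the first time point and higher at the second, and its fold over all arrays was 0.989 (95% interval 0.730 to 1.34).

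Of the phosphatases, DUSP4 was lower in knockdown cells at each time point without overlap. Its signal was 2.83 in control and 2.58 in knockdown cells at 48 h, against 2.69 and 2.51 at 96 h. The difference was -0.25 (log2) at the earlier and -0.18 at the later time point, with a fitted log2 fold change of -0.21 (SE 0.12, limma adjusted p = 0.752). The fold was 0.862 with a 95% interval of 0.691 to 1.08.

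DUSP6, the ERK phosphatase of the cytoplasm, had a signal of 4.02 in control and 3.89 in knockdown cells at 48 h. At 96 h the values were 3.78 and 3.51. The array of knockdown cells was the lower at each time point, while the groups overlapped because the 96 h control array was below the 48 h array of knockdown cells. The difference was -0.13 (log2) at the earlier and -0.27 at the later time point, with a fitted log2 fold change of -0.20 (SE 0.19). Under the replicate block the SE was 0.08. The fold was 0.871 with a 95% interval of 0.616 to 1.23. The groups of DUSP6 did not overlap with normexp, with normexp and quantile normalization, or in the log2 values that the authors normalized.

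DUSP1 and DUSP5 had a mean above that of control cells. DUSP1 was spotted 10 times on each array, which gives the spread of single spots within an array. Its mean signal was -1.84 in control and -1.76 in knockdown cells at 48 h, against -2.03 and -1.87 at 96 h, with an SD between spots of 0.0931 to 0.130. The groups overlapped, and the fitted log2 fold change was 0.12 (SE 0.13, limma adjusted p = 0.917). DUSP5 had a signal of 1.505 in control and 1.46 in knockdown cells at 48 h, against 1.37 and 1.75 at 96 h. The 96 h array of knockdown cells was thus the highest and the other three lay together, and the fold was 1.12 (95% interval 0.846 to 1.48).

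PHLDA1 had a signal of 2.32 in control and 2.23 in knockdown cells at 48 h, against 2.37 and 2.41 at 96 h. The groups overlapped and the fold was 0.984 (95% interval 0.779 to 1.24). Over the 9 genes the 95% intervals ran from 0.586-fold, for SPRY1, to 1.48-fold, for DUSP5, so that each of them lay within a 2-fold change in either direction. The interval of SPRY4 was the only one of the 9 that did not hold 1. A p above the threshold does not show that a gene was unchanged. The log2 fold change of IL17RD, -0.55, lay inside the intervals of SPRY4 (-0.73 to -0.04), SPRY1 (-0.77 to 0.10) and DUSP6 (-0.70 to 0.30) and below those of the other 6 genes. For DUSP4 it was only just below, as that interval began at -0.53. IL17RD was chosen for this value, which has no interval of its own. The position is therefore a description and cannot decide which genes followed IL17RD.

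**Figure D2:**
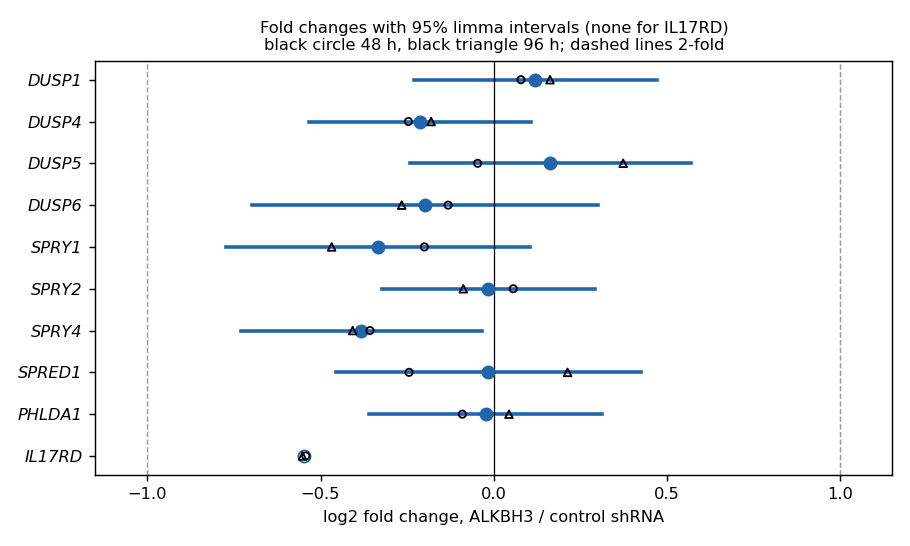
Log2 fold change of ALKBH3 over control shRNA (horizontal axis) for each gene, with the mean over both time points as a large circle, its 95% interval from limma as a bar, and the values at 48 h and 96 h as a small circle and a triangle. Dashed lines mark a 2-fold change, which no bar reaches; IL17RD has no interval because it was chosen for this value.

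Set against all genes, 3 of the 9 (33.3%) had both knockdown arrays below both control arrays, namely DUSP4, SPRY1 and SPRY4, where 19.1% of all genes did. None of the 9 had both above, where 17.4% of all genes did. Of the 9, 4 were lower at both time points (DUSP4, DUSP6, SPRY1 and SPRY4), 1 was higher at both (DUSP1) and 4 changed sign, while 35.6%, 34.6% and 29.8% of all genes did so. The pattern of IL17RD over the 4 arrays was nearest to that of ARHGEF6, CDKN2A, KCNQ1OT1, GOLPH3L and AQP7P1, by the Euclidean distance between signals centred on the mean of each gene. Their distances lay between 0.0546 and 0.0702, and the median over all genes was 0.642. Of the 9 genes SPRY4 was the nearest to IL17RD, at 0.179, with 0.811% of genes as near or nearer, followed by DUSP4 at 0.355 and DUSP6 at 0.368. These distances rest on 4 arrays and on the comparison for which IL17RD was chosen, and are given as a description only.

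**Figure D3:**
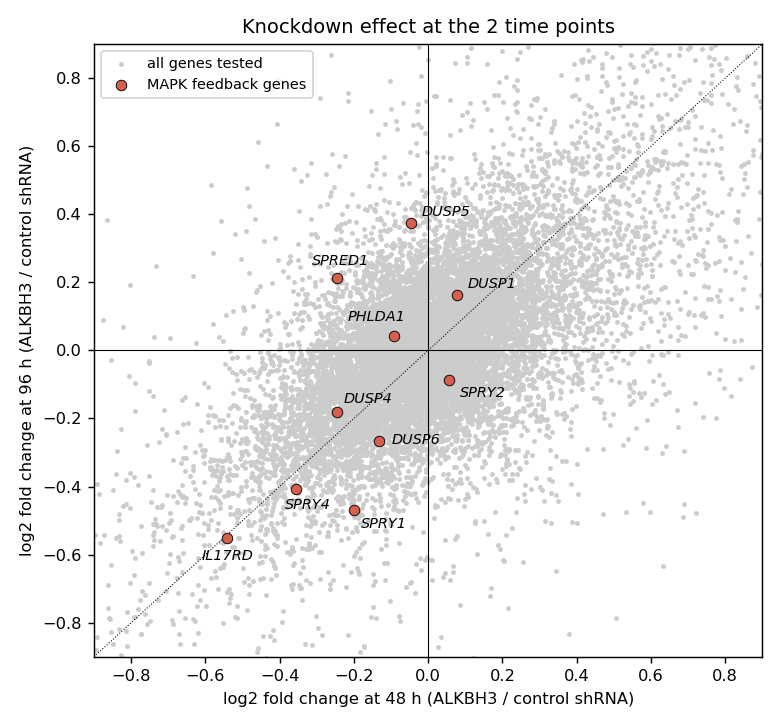
Log2 fold change of ALKBH3 over control shRNA at 48 h (horizontal axis) and at 96 h (vertical axis), each from 1 array against 1 array, for all genes tested in grey and the 10 feedback genes in red. The axes end at 0.9 in either direction, which leaves 600 of 14556 genes outside the plot; IL17RD and SPRY4 lie near the dotted line of equal change, and DUSP5 and SPRED1 lie to the left of 0 at 48 h and above 0 at 96 h.

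The comparison of 96 h with 48 h played no part in the choice of the genes and was tested for all 10, with the shRNA as a term of the fit. None of them passed a limma adjusted p of 0.05, where 12.8% of all genes did, 6.94% as lower and 5.84% as higher. Unadjusted p-values were below 0.05 for 2 of the 10, DUSP6 and IL17RD, against 35% of all genes. DUSP6 had the largest difference and was lower at 96 h by 0.25 in control and by 0.38 in knockdown cells on the log2 scale, with a fitted difference of -0.32 (SE 0.08, limma adjusted p = 0.0755). This order depends on the scaling: after normexp background correction the difference was -0.17 for DUSP6 and -0.34 for SPRY4, and in the log2 values that the authors normalized it was -0.18 for DUSP6, -0.35 for SPRY4 and 0.30 for SPRY1. IL17RD was lower by 0.21 in control and by 0.22 in knockdown cells (fitted difference -0.22, SE 0.08, limma adjusted p = 0.130). SPRY1 was higher by 0.36 in control and by 0.09 in knockdown cells (limma adjusted p = 0.193). Both arrays at 96 h were below both arrays at 48 h for DUSP1 and DUSP6, as for 26% of all genes, and above them for PHLDA1, as for 26.6%.

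The remaining genes of the pathway were grouped by function into lists, 78 genes in all, of which 69 were tested. The call of a 2-fold change with an unadjusted limma p below 0.05 was passed by 0 of them as lower and 1 as higher, where 0.234% and 1.04% of all genes passed it. Under the replicate block 1 was lower and 4 were higher at a limma adjusted p of 0.05, beside 1.5% and 2.96% of all genes, and 1 of the 4, FGFR3, was measured in knockdown cells only and so entered the test through the group in which it is high. The median log2 fold change was -0.08. The genes that passed were the growth factors FGF1 and FGF5, the receptor FGFR3, the FGF receptor partner FLRT3 and the PHLDA1 relative PHLDA2. All but PHLDA2 belong to the list of FGF receptors and their partners, of which 11 of 15 were tested and the median was 0.15.

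FGF1, which activates all FGF receptors, had a signal of -4.91 in control and -4.02 in knockdown cells at 48 h, against -4.80 and -3.28 at 96 h. It was the gene past the 2-fold call, with a log2 fold change of 1.21 (SE 0.27, limma adjusted p = 0.403, and 0.0439 under the replicate block), and a second probe was measured on only 2 arrays. FGF1 was not past the call after normexp background correction (0.72), in the log2 values that the authors normalized (0.94) or when the 96 h array of knockdown cells was left out (0.84). FGF5 differed by 0.69 (log2) at 48 h and by 1.20 at 96 h (limma adjusted p = 0.403, and 0.0488 under the replicate block). Its second probe had a log2 fold change of 0.57, and the third was measured on 0 arrays. FLRT3, a membrane protein that binds FGF receptors, differed by 0.89 at 48 h and by 0.62 at 96 h (limma adjusted p = 0.484, and 0.0423 under the replicate block). After normexp background correction the log2 fold change was 0.66 instead of 0.95 for FGF5 and 0.40 instead of 0.76 for FLRT3. In the log2 values that the authors normalized it was 0.82 for FGF5 and 0.50 for FLRT3. FGFR3 was measured in knockdown but not in control cells and was at least 1.40-fold higher in knockdown cells, taking as the control level the dimmest signal that the software still placed above background. The log2 fold change of FGFR3 was 0.029 after normexp background correction, 0.060 when quantile normalization followed and 0.11 in the log2 values that the authors normalized, all below this bound, so the bound depends on the background correction. Its second probe was measured on 0 arrays.

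PHLDA2, an imprinted gene related to PHLDA1, had a signal of 5.15 in control and 4.32 in knockdown cells at 48 h, against 5.13 and 4.57 at 96 h. The groups did not overlap, and the log2 fold change was -0.69 (SE 0.14, limma adjusted p = 0.354, and 0.0455 under the replicate block). PHLDA1 had -0.02, and PHLDA3, the only other gene of the list that holds PHLDA2, had 0.32 and did not pass.

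Among the 6 other MAP kinase phosphatases none passed in either fit, and DUSP9 had the largest log2 fold change, 0.42 (limma adjusted p = 0.575). Neither SPRY3 nor SPRED2 passed, and SPRED2 had the larger difference with -0.32 (limma adjusted p = 0.760). Of 16 other transcriptional targets of ERK, 13 were tested, none passed in either fit, and the median was -0.09. EPHA4 had the largest difference of these, -0.45 (limma adjusted p = 0.921), but its sign turned without the 48 h control array (0.066) or the 96 h array of knockdown cells (0.080), and it was -0.98 without the 48 h array of knockdown cells and -0.97 without the 96 h control array. The immediate early genes EGR1 and EGR3 were measured on 0 arrays and FOS on 2, so that these targets were not tested. In the core of the ERK cascade, from receptor adaptors through RAS, RAF and MEK to ERK, 19 of 20 genes were tested and none passed. Their median was -0.10, and RPS6KA3, a kinase activated by ERK, had the largest difference, -0.50 (limma adjusted p = 0.636, and 0.0548 under the replicate block). Of 11 other negative regulators none passed, and CBLB, a ubiquitin ligase for activated receptors, had -0.50 (limma adjusted p = 0.471). Of the 5 genes listed as other interleukin-17 receptors or their adaptor TRAF3IP2 none passed, and IL17RC had -0.49 (limma adjusted p = 0.740, and 0.0526 under the replicate block).

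**Figure D4:**
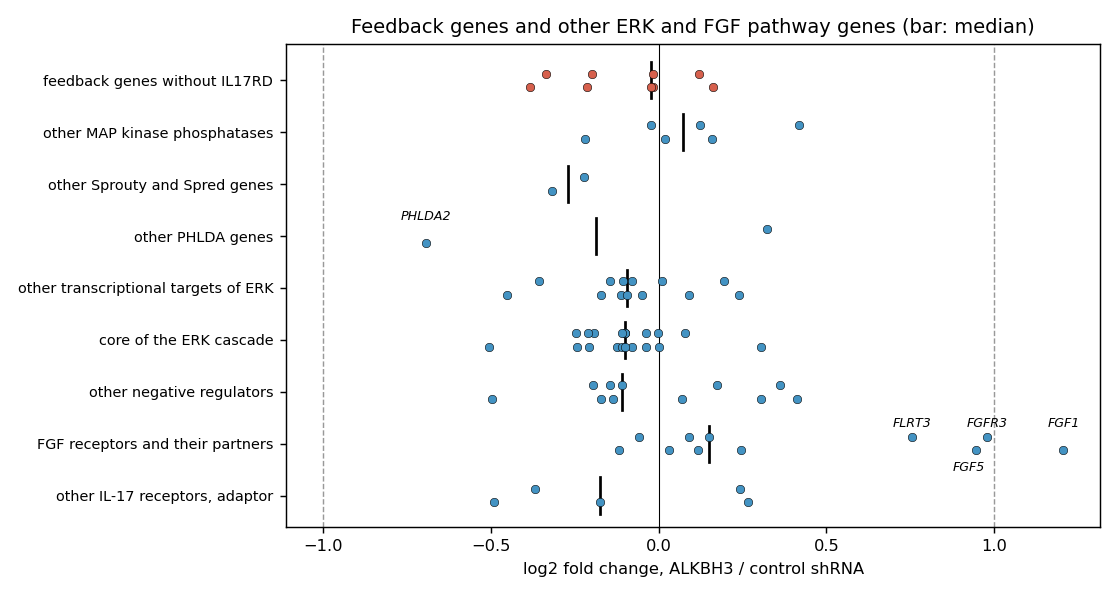
Log2 fold change of ALKBH3 over control shRNA (horizontal axis) for each gene tested in the feedback group without IL17RD (red) and in 8 other lists (blue), with the median of a list as a black bar and 2-fold changes as dashed lines. Named genes passed the 2-fold call or an adjusted p of 0.05 with the replicate block; 4 of the 5 are in the FGF list, and the value drawn for FGFR3 is not a fold because FGFR3 was not above background in control cells.

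Markers of other cell types were also measured. All 5 leukocyte markers were above background on every array at low signal, and their summed intensity, in units of the 75th percentile of an array, was 0.225 to 0.231 in control and 0.229 to 0.231 in knockdown cells. The sum over 4 endothelial markers, 3 of them measured on every array, was 0.843 to 0.897 in control and 0.494 to 0.563 in knockdown cells. KDR had the highest signal of these markers on every array and thus weighed most in the sum. Its log2 fold change was -0.86 (limma adjusted p = 0.348, and 0.0439 under the replicate block). PECAM1 (-0.59), CDH5 (-0.20) and VWF (0.29) passed in neither fit. The sum over 5 fibroblast markers, 3 of them measured on every array and COL1A2 on 0, was 0.425 to 0.659 in control and 0.786 to 1.01 in knockdown cells. LUM had a log2 fold change of 1.98 and passed the 2-fold call (limma adjusted p = 0.495, and 0.0209 under the replicate block). It was measured on only 1 control array and so entered the test through the knockdown cells. DCN had 0.65 (limma adjusted p = 0.348, and 0.0426 under the replicate block). COL1A1 (0.71) and COL3A1 (-0.43) passed in neither fit. The sum over the epithelial markers was 166 to 181 in control and 161 to 166 in knockdown cells. Within it EPCAM was 0.98 higher (log2) in knockdown cells (limma adjusted p = 0.418, and 0.0264 under the replicate block) and CDH1 0.74 higher (limma adjusted p = 0.887, and 0.0472 under the replicate block), while KRT8, KRT18 and KRT19 passed in neither fit. The part of these markers in the results was not tested.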

How the data were processed

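Spot intensities of 4 Agilent 4x44K v2 single-colour arrays were used. The authors deposited intensities from Agilent Feature Extraction (version 10.7.3.1 in the file headers), background-subtracted, detrended and floored on each array, and not normalized across arrays. Log2 intensities that the authors normalized with limma served as an alternative.

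Spots flagged as outliers (180 to 379 per array) were removed, log2 intensities were centred on the 75th percentile of each array (2150 to 2394), and spots of a probe were averaged. RefSeq accessions named 24910 of 34127 probes (gene table of GRCh38.p14), the members included. A probe was tested if at least 0.5 of its spots were well above background on each array of 1 or both shRNAs, and the brightest probe stood for each of 14556 genes. R 4.3.3 and limma 3.58.1 (lmFit, eBayes, Benjamini-Hochberg over all genes) compared the shRNAs without a covariate and the time points with the shRNA as a term. Time points pair the arrays by their labels, and over genes the 96 h minus 48 h differences of both shRNAs correlated at 0.703.

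Named were all members, ALKBH3, in each list up to 4 genes that passed or else the gene with the largest change, and the 5 genes nearest IL17RD. Members and lists were chosen with earlier results of these data known. Scripts were tested on simulated data. Alternatives were normexp (offset 50) with and without quantile normalization, quantile normalization, median centring, a 75th percentile over probes above background on all arrays, the authors' values, other filters and probe rules, a 1.5-fold cutoff, the replicate block and leaving out each array.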

Additional observations from a re-analysis of the deposited data

Results flagged for a closer look

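In 4 of the 9 genes other than IL17RD the log2 fold changes at 48 h and 96 h had opposite signs, as 29.8% of all genes did. Each value compares 1 array with 1 array, so the difference between the time points was not tested. For SPRED1 the log2 fold change at 96 h was 0.46 above that at 48 h, from -0.24 to 0.21. For DUSP5 it was 0.42 above, from -0.05 to 0.37. For PHLDA1 it was 0.13 above, from -0.09 to 0.04, and for SPRY2 the difference was -0.14, from 0.06 to -0.09. Both were smaller than the median absolute difference of 0.18 between the control arrays. That value compares 1 array with 1 array of another time point and slide, so it is not a measure of noise for a difference that draws on all 4.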

How the results depend on the processing

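Under all 16 alternatives, 0 of the 9 genes other than IL17RD passed the 2-fold call or the adjusted p. IL17RD itself did not reach a 2-fold change under any of them. SPRY4 (-0.47 to -0.29), SPRY1 (-0.51 to -0.16), DUSP4 (-0.28 to -0.15), DUSP6 (-0.39 to -0.01) and IL17RD (-0.66 to -0.44) kept a log2 fold change below 0, and DUSP1 and DUSP5 one above 0; SPRY2, SPRED1 and PHLDA1 changed sign in 7, 3 and 3. The replicate block brought none of the 9 past the adjusted p (0.0759 to 0.952). The median of the 9 was -0.11 with normexp, -0.11 with normexp and quantile normalization and -0.11 with the authors' values, and -0.16 to -0.048 with an array left out. DUSP1 had both knockdown arrays above the controls, a count of 1, with quantile normalization, with normexp and quantile normalization, with the other 75th percentile and with the authors' values. DUSP6 joined DUSP4, SPRY1 and SPRY4 among the genes with both below, a count of 4, with normexp, with normexp and quantile normalization and with the authors' values. Pathway genes called higher were 0 with normexp, with normexp and quantile normalization and with the authors' values, 2 with no filter, 2 with each probe on its own, 4 at 1.5-fold (1 lower), and 1 to 3 with an array left out (0 to 1 lower). For 96 h against 48 h, 1 member was lower (SPRY4) with normexp, with normexp and quantile normalization and with the authors' values (limma adjusted p = 0.0185, 0.0124 and 0.0406), and 1 was higher (SPRY1, limma adjusted p = 0.0327) in the second. Genes called for time were 1860, and 3605, 4089 and 3506 in these, 0 with no filter and 0 with no shRNA term (no replicate block). The cause was not tested. With an array left out, the time fit has no residual degrees of freedom and was not run. Low signal limits FGFR3, FOS, EGR1 and EGR3. The signals of FGF1, FGF5 and FLRT3 were also low, and their log2 fold changes were smaller with normexp.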
